A study of Mus musculus with 15 samples.

Results

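A set of 8 genes of epithelial cytokines was followed across 5 mouse epithelia. It holds Il23a and Il12a of the IL-12 family, Il15 and its receptor gene Il15ra, the IL-1 family genes Il18, Il33 and Il1a, and Tslp. The members were taken by name from the 50600 genes in the count tables, and all 8 passed the filter on low counts that left 19107 genes. Il23a was chosen by its measured level in these libraries, high in thymic epithelium and higher in its medullary part. Its thymic levels are therefore a description with no test, and it stands outside every count of members that involves a thymic group.

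All cells were primary epithelium of male mice of the inbred strain C57BL/6J, 8 weeks old, isolated by flow cytometry, and the labels name no treatment. Thymic epithelium was split into a cortical group (cTEC) and a medullary group (mTEC), and the extrathymic groups were skin, colon and lung epithelium. Each of the 5 groups had 3 libraries, and each library pooled cells of 5 mice, so n = 3 pools per group throughout, an SD is the spread among pools, and differences between single mice are not seen. Thymic and skin libraries used the kit KAPA RNA Stranded PolyA, whereas KAPA RNA HyperPrep PolyA was used for lung and colon, so for these 2 tissues against the rest, tissue and kit cannot be told apart. The study looked for mechanisms of the unequal MHC class I levels of epithelia. In bulk libraries such as these, fewer cells of a type and less RNA per cell cannot be told apart.

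Cytokines are secreted proteins through which cells instruct immune cells. The IL-12 family works as pairs: the Il23a product joins that of Il12b to form IL-23 and the Il12a product joins it to form IL-12. IL-15 is shown to T and NK cells bound to the receptor chain that Il15ra encodes, and IL-15 made by thymic epithelium is known to support NKT cells and CD8 T cells. IL-33 and IL-1 alpha are alarmins released by damaged barrier cells, IL-18 is cut into its active form by caspase-1, and TSLP is an epithelial factor known for type 2 inflammation of skin and lung.

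The start regions of 4 members are shown because these genes form the opposite poles of the set, Il12a and Il15ra being high in thymic epithelium and Il33 and Il1a in skin. Each is the 250 bases before a transcription start of RefSeq on GRCm38.p6, read 5′ to 3′ on the gene's strand, with matched motifs in capitals. The windows are chr3:68690394-68690643 (plus strand, the first of 2 starts), chr2:11705462-11705711 (plus strand, the second of 2 starts), chr19:29945540-29945789 (plus strand, the second of 2 starts) and chr2:129309973-129310222 (minus strand).
Il12a: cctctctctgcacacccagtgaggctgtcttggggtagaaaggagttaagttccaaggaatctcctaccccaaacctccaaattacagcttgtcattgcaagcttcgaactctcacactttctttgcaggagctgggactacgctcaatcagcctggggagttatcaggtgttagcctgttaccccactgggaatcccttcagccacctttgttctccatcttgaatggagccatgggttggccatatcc
Il15ra: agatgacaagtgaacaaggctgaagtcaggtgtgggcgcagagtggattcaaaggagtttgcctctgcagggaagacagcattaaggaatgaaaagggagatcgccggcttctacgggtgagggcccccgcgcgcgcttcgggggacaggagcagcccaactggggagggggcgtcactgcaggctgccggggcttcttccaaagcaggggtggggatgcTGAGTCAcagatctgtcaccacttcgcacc
Il33: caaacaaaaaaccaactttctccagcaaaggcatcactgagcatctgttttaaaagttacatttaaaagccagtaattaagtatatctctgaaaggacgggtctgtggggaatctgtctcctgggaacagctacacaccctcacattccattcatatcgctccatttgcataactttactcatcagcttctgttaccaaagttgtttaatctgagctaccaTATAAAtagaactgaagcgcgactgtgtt
Il1a: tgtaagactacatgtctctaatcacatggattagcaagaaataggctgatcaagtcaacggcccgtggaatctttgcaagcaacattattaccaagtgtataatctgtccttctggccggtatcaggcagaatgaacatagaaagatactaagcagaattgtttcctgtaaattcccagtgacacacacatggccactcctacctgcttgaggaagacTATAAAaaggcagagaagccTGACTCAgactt

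The RefSeq promoter table held windows of 5 of the 8 members: Il12a, Il15ra, Il18, Il33 and Il1a. Both strands were searched for an interferon response core (2 copies of GAAA with 2 bases between them), a kappa B core (GGGA and TTCC with 2 bases between them), a STAT site (TTCNNNGAA), an AP-1 site (TGANTCA) and a TATA box (TATAAA), the last 2 motifs added after the windows had been seen. TATAAA lay 29 to 24 bases before the second start of Il33 and 32 to 27 bases before that of Il1a. The window of the first start of Il33 held it farther away, at 203 to 198 bases, and that of Il18 held it on the other strand (TTTATA) at 175 to 170 bases. Il1a also held the AP-1 letters TGACTCA 12 to 6 bases before the start. Il15ra held TGAGTCA 30 to 24 bases before its second start, and the window of its first start held 0 matches. The Il12a windows held none of the 5 motifs. Among 32851 mouse windows of 250 bases, 12.4% held the TATA letters, 6.75% the AP-1 letters, 7.02% the STAT letters, 2.98% the interferon core and 1.21% the kappa B core. A match is a run of letters, not a bound site.

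Reads in genes numbered 12946533 to 41978665 per library, the largest being 3.24 times the smallest. Skin replicate 1 stood apart, with 46.9% of its reads outside genes against 24.2% at the least in the series. Levels are given in CPM, gene reads relative to TMM-scaled library size, and differences as log2 fold changes with their standard error, tested with edgeR's quasi-likelihood F-test and called at an adjusted p under 0.05. Markers of skin, colon and lung epithelium were highest, as sums, in the libraries labelled so. Of 10 thymic epithelium markers 9 were higher in thymic than in extrathymic epithelium and 0 lower, and 9 were higher and 1, Krt5, lower than in skin. The sum of these 10, which keratin genes lead, was 6931 to 15885 CPM in skin, 5789.7 to 7653 in the thymic groups, 5570.5 to 7164 in colon and 857 to 1112 in lung. Other cells were present to unequal degrees. Summed markers of myeloid and dendritic cells reached 1786 to 3325 CPM in lung, 164 to 260.1 in mTEC, 87.7 to 106 in cTEC, 31.1 to 74.0 in skin and 50.3 to 53.5 in colon. Those of fibroblasts were 1393 to 7775 CPM in skin, 996 to 1273 in lung, 280.4 to 534 in cTEC, 184 to 422 in colon and 155 to 178 in mTEC. Endothelial cell markers summed to 339 to 484 CPM in lung, 106 to 368 in skin, 24.8 to 42.7 in mTEC, 15.1 to 17.4 in cTEC and 15.5 to 51.5 in colon, and 9 of 9 were lower in thymic than in extrathymic epithelium. Thymocyte and T cell markers summed to 112 to 158 CPM in cTEC, 38.1 to 66.7 in mTEC and at most 8.25 elsewhere. The part of these cells in the levels below was not tested.

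**Figure D1:**
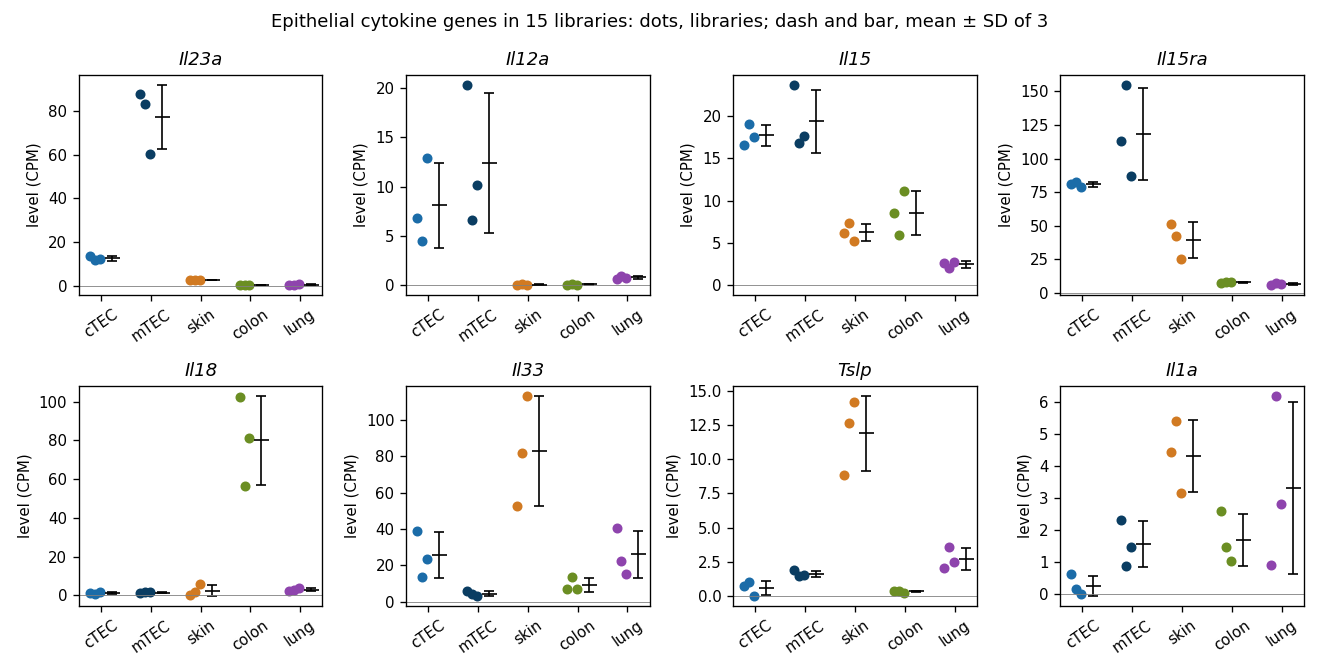
Level in CPM (linear axis from 0, a scale per gene) of the 8 cytokine genes in the 5 groups, with 1 dot per library and the mean and SD of 3 libraries as dash and bar. Il23a, Il12a, Il15 and Il15ra are highest in the thymic groups, Il18 in colon, and Il33, Tslp and Il1a in skin by their means.

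The members fell apart by the epithelium where each was highest. By group means, Il23a, Il12a, Il15 and Il15ra were highest in mTEC, Il18 in colon, and Il33, Tslp and Il1a in skin. All 7 members other than Il23a differed among the 5 groups, where 90.6% of the 19107 genes did. Thymic epithelium (cTEC and mTEC) and the 3 extrathymic groups were each averaged on the log2 scale, so a group at a low level weighs heavily. Between these means, 3 of 7 members were higher in thymic epithelium (Il12a, Il15, Il15ra) and 4 lower (Il18, Il33, Tslp, Il1a). Of all genes 37.3% were higher and 26.9% lower in that comparison, and the median log2 fold change was -1.18 over the 7 members and 0.14 over all genes. Upper quartile scaling raised the median of all genes to 0.301, and the 7 calls were the same. Against skin alone, within a single kit, the same 3 members were higher and Il33, Tslp and Il1a lower, with Il18 not called. Of all genes 35.6% were higher and 25.6% lower than in skin, with medians of -0.96 over the members and 0.21 over all genes.

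**Figure D2:**
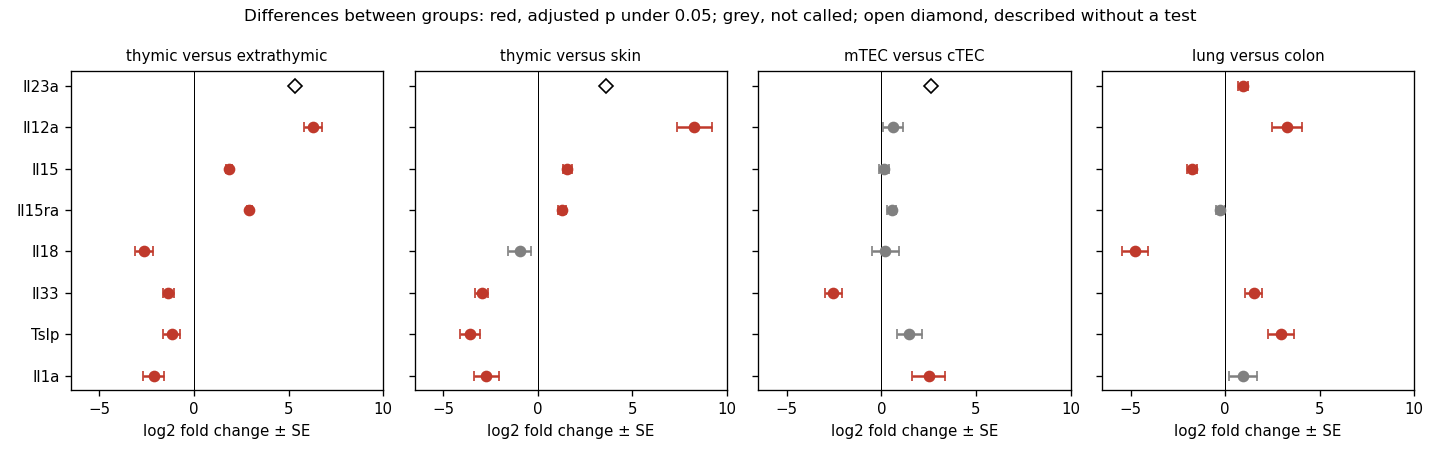
Log2 fold change (linear axis, first group over second) of each member in 4 comparisons, with bars of 1 standard error, red where the adjusted p was under 0.05 and grey where it was not. Il23a is an open diamond without a test in the 3 panels with thymic groups, and Il12a, Il15 and Il15ra lie right of 0 and Il33, Tslp and Il1a left of 0 in both panels that set thymic epithelium against other epithelia.

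Il23a encodes the p19 subunit of IL-23, and on GRCm38 Il23a (ENSMUSG00000025383.2, chromosome 10, 128296139 to 128298752, minus strand) is a protein-coding gene. It stood at 87.8, 83.3 and 60.3 CPM in mTEC replicates 1 to 3 and at 13.7, 11.6 and 12.3 CPM in cTEC. In skin it stood at 2.54, 2.56 and 2.49 CPM, in lung at 0.523, 0.579 and 0.681 and in colon at 0.224, 0.29996 and 0.401. No 2 groups overlapped, and the order was mTEC, cTEC, skin, lung, colon. The mean in mTEC was 77.1 ± 14.8 CPM (SD, n = 3) against 12.6 ± 1.05 in cTEC, 6.14 times higher by the fitted model, a description with no test. Thymic epithelium was 39.9 times above the extrathymic mean and 12.3 times above skin, also without a test.

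Among the extrathymic groups, which the choice of Il23a did not compare with each other, the gene differed at low levels. Skin was 4.23 times above lung (log2 fold change 2.08 ± 0.23, adjusted p = 1.96e-06) and 8.08 times above colon (3.01 ± 0.26, adjusted p = 1.56e-07). Both differences also lie between the kits. Lung was 1.91 times above colon (0.94 ± 0.27, adjusted p = 0.0111), resting on 59 reads in lung and 23 in colon over 3 libraries each. That call was lost without colon replicate 1 (adjusted p = 0.0632) and with RSEM expected counts (adjusted p = 0.108).

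Il12a encodes the p35 subunit of IL-12, which also pairs with the Ebi3 product in IL-35. The gene is Il12a (ENSMUSG00000027776.12, chromosome 3, 68690644 to 68698547, plus strand) on GRCm38. Its level was 20.3, 6.59 and 10.2 CPM in mTEC and 6.85, 4.51 and 12.9 CPM in cTEC, so the thymic groups overlapped and pools of the same group differed by a wide margin (adjusted p = 0.443 between them). Skin gave 1 read in its 3 libraries and colon 6. Lung was uniform at 0.677, 0.955 and 0.774 CPM. Over pooled reads thymic epithelium was 396 times above skin (95% exact interval 70.9 to 15644, counting error only) and 128 times above colon (58.8 to 350). It was 10.01 times higher in cTEC than in lung (log2 fold change 3.32 ± 0.604, adjusted p = 0.00027). Against the extrathymic mean the difference was 6.28 ± 0.48, adjusted p = 3.28e-08, a size that leans on the few reads of skin and colon and became 7.11 without skin replicate 2, which holds the only read of that group. Lung exceeded colon by 3.28 ± 0.78, adjusted p = 0.00213, or by 4.83 without colon replicate 2.

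**Figure D3:**
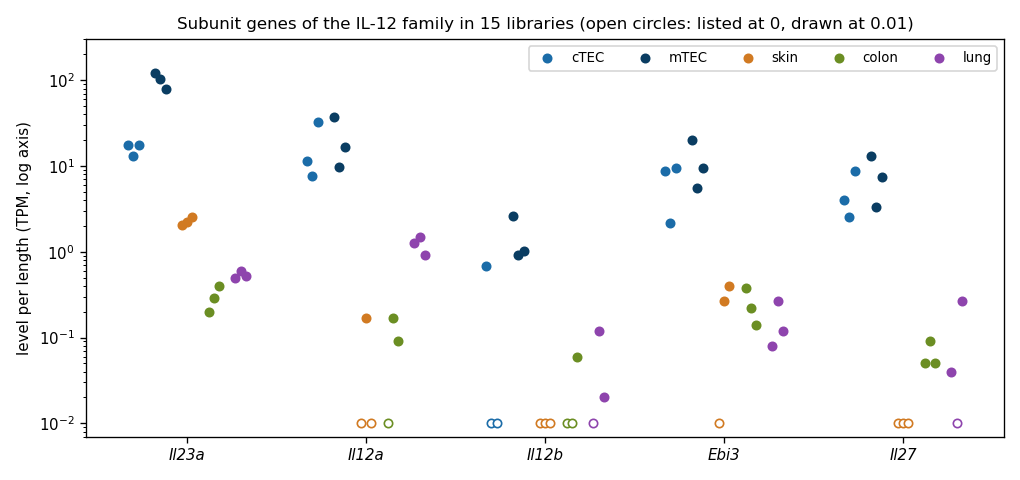
Level per transcript length (deposited TPM, log axis) of 5 subunit genes of the IL-12 family, with 1 dot per library and open circles for libraries listed at 0. Il23a lies at 78.2 to 122 TPM in mTEC, where Il12b lies at 0.92 to 2.58, and Il12a, Ebi3 and Il27 are spread over the same range in both thymic groups.

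The partner subunits were unequal in the groups that held Il23a. Il12b, the p40 subunit that both IL-12 and IL-23 need, gave 55, 22 and 27 reads in mTEC, 16, 0 and 0 in cTEC, 0 in skin, 2 in colon and 8 in lung. It was at least 21.9-fold higher in mTEC than in skin against a floor of 3 reads over the group. Between mTEC and cTEC the reads gave a ratio of 6.07 (95% exact interval 3.57 to 11.01, counting error only), and the test gave an adjusted p of 0.138, or 0.0191 without cTEC replicate 1. The call of Il12b in thymic against extrathymic epithelium (adjusted p = 0.0026) was lost without cTEC replicate 1 (adjusted p = 1). Per length, the TPM of Il23a was 47.1 to 112 times that of Il12b in the 3 mTEC libraries.

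Ebi3, a subunit of IL-27 and IL-35, stood at 13.1, 4.24 and 6.68 CPM in mTEC and 5.66, 2.12 and 5.54 in cTEC, against 0.189, 0.231 and 0.119 CPM on average in skin, colon and lung (thymic versus extrathymic log2 fold change 5.03 ± 0.44, adjusted p = 1.51e-07). Il27, the other subunit of IL-27, stood at 7.94, 2.12 and 4.42 CPM in mTEC and 2.67, 1.62 and 5.10 in cTEC, with no read in skin. In mTEC, Il12a, Ebi3, Il27 and the summed myeloid and dendritic cell markers (260.1, 164 and 223 CPM) were all highest in replicate 1 and lowest in replicate 2. In cTEC, Il12a and Il27 were highest in replicate 3, where the myeloid sum was the lowest (106, 89.2 and 87.7 CPM), whereas Ebi3 was highest in replicate 1, where that sum was the highest. Lung, with the highest myeloid sums, led there by Lyz2 (1892 CPM), had 0.802 CPM of Il12a, 0.119 of Ebi3 and 0.594 of Il23a. The sum does not tell dendritic cells from other myeloid cells, and the part of either in these levels was not tested.

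Receptor genes of the family were also measured. Il23r, which encodes the IL-23 receptor chain, stood at 18.05, 13.7 and 10.9 CPM in mTEC, 2.33, 1.06 and 1.85 in cTEC and at most 0.941 in any other library. It was 8.11 times higher in mTEC than in cTEC (log2 fold change 3.02 ± 0.77, adjusted p = 0.0147), a call lost without cTEC replicate 2 (adjusted p = 0.0627) or mTEC replicate 1 (adjusted p = 0.0607). Il12rb1, the chain shared by both receptors, stood at 6.23 ± 2.17 and 5.01 ± 0.803 CPM in mTEC and cTEC, and gave 0 reads in skin, 3 in colon and 5 in lung. Il12rb2, the IL-12 specific chain, was instead highest in skin at 29.3 ± 10.4 CPM, and thymic epithelium lay below skin (-3.38 ± 0.53, adjusted p = 8.01e-05). Of the 9 listed family genes other than Il23a, 9 were higher in thymic than in extrathymic epithelium, with a median log2 fold change of 5.03, where 37.3% of all genes were higher. Against skin 7 were higher and 1, Il12rb2, lower, with a median of 4.85, or 4.12 with groups without reads at the floor. Of all genes 35.6% were higher and 25.6% lower than in skin. T cells and myeloid cells also express several of these genes, and 12 of 12 thymocyte markers were higher in thymic than in extrathymic libraries.

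Il15 and Il15ra were high together in the thymus. Il15 (ENSMUSG00000031712.10, chromosome 8, 82331632 to 82403222, minus strand) stood at 23.7, 16.8 and 17.7 CPM in mTEC and 16.6, 19.1 and 17.5 CPM in cTEC. Colon had 8.504, 5.90 and 11.1 CPM, skin 6.21, 7.34 and 5.28 and lung 2.61, 2.05 and 2.82. Every thymic library lay above every extrathymic one, and lung lay below all others. The gene was 3.63 times higher in thymic epithelium than in the extrathymic mean (log2 fold change 1.86 ± 0.16, adjusted p = 1.46e-07) and 2.96 times higher than in skin (1.56 ± 0.24, adjusted p = 6.11e-05). The cTEC and mTEC libraries overlapped (0.13 ± 0.25, adjusted p = 0.752), as did colon and skin (adjusted p = 0.161). Lung lay 3.40 times below colon (-1.77 ± 0.26, adjusted p = 4.18e-05) and 2.51 times below skin (adjusted p = 5.57e-04).

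Il15ra, the chain that presents IL-15 to neighbouring cells, had the highest level per length of the 8 genes in both thymic groups. Il15ra (ENSMUSG00000023206.16, chromosome 2, 11705290 to 11734317, plus strand) stood at 113, 155 and 87.0 CPM in mTEC and 81.3, 82.3 and 78.6 CPM in cTEC. Skin followed with 51.4, 42.2 and 25.2 CPM, and colon and lung were low with 7.61, 7.90 and 8.38 and with 5.84, 7.64 and 6.47. The gene was 7.64 times higher in thymic than in extrathymic epithelium (log2 fold change 2.93 ± 0.15, adjusted p = 6.41e-10) and 2.47 times higher than in skin (1.31 ± 0.21, adjusted p = 0.000113). All mTEC libraries lay above all cTEC libraries, but the difference did not pass (0.55 ± 0.23, adjusted p = 0.0962). It passed without mTEC replicate 3 (adjusted p = 0.043) or skin replicate 3 (adjusted p = 0.0231). Skin exceeded colon 4.95 times (2.31 ± 0.25, adjusted p = 1.62e-06), and colon and lung overlapped (adjusted p = 0.377).

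The balance of the receptor chain and its ligand differed between epithelia. The TPM ratio of Il15ra to Il15 was 3.44 to 3.87 in cTEC, 3.50 to 7.14 in mTEC and 2.74 to 5.91 in skin. It was 1.12 to 2.78 in lung and 0.530 to 0.877 in colon, where it lay below every other library. These ratios are descriptions. Of the chains that receive IL-15, Il2rb stood at 3.30 ± 1.198 CPM in mTEC and 1.05 ± 0.147 in cTEC, with 1 read in skin, 9 in colon and 4 in lung (thymic versus extrathymic 5.02 ± 0.51, adjusted p = 7.15e-07, or 5.86 without skin replicate 2). Il2rg, the common gamma chain, stood at 42.9, 18.8 and 33.8 CPM in mTEC, 9.38, 10.1 and 11.4 in cTEC and 22.6, 21.6 and 3.09 in skin. It was higher in thymic than in extrathymic epithelium (3.35 ± 0.39, adjusted p = 3.34e-06), with 0.279 CPM in colon and 1.29 in lung, but not called against skin (adjusted p = 0.737). Its excess in mTEC over cTEC (1.63 ± 0.57, adjusted p = 0.0497) was lost without any of 10 libraries, namely cTEC replicates 1, 2 or 3, mTEC 1 or 3, colon 1, 2 or 3 and lung 2 or 3, with unstranded counts and with the groups of the same kit (adjusted p 0.0501 to 0.175), and with the replicate number as a block (adjusted p = 0.0842 within the thymic groups).

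Of the 9 measured genes in the list of IL-15 receptor chains and common gamma chain cytokines, 8 were higher in thymic than in extrathymic epithelium and 0 lower, Il15 and Il15ra among them, with a median log2 fold change of 4.03, or 3.35 with groups without reads at the floor. Against skin, 7 were higher. Of all genes 37.3% were higher and 26.9% lower in thymic than in extrathymic epithelium, and 35.6% were higher than in skin. Il7, the growth factor of early thymocytes, had 135 ± 27.1 CPM in mTEC and 143 ± 12.5 in cTEC, against 0.855 ± 0.555 in skin, 6.74 ± 1.07 in colon and 1.86 ± 0.360 in lung (log2 fold change 6.01 ± 0.19, adjusted p = 5.49e-12). Il2ra, the alpha chain of the IL-2 receptor, stood at 51.3 ± 6.95 CPM in mTEC and 16.2 ± 5.97 in cTEC (7.76 ± 0.37, adjusted p = 2.78e-10), with 12 reads in skin, 5 in colon and 10 in lung. Il9 gave 110 reads in mTEC, 2 in cTEC and 0 elsewhere, and Il21 gave 45 reads in mTEC, 0 in cTEC and skin, 4 in colon and 1 in lung. Both were higher in mTEC than in cTEC (adjusted p = 0.0058 and 0.00872).

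Il18 was the cytokine gene of the colon. Il18 (ENSMUSG00000039217.13, chromosome 9, 50554827 to 50581840, plus strand) shares bases with Bco2 and Tex12 on the other strand, and the counts used keep the strands apart. It stood at 102, 56.5 and 81.5 CPM in colon. Lung had 2.37, 2.63 and 3.81 CPM, skin 0, 1.77 and 5.64, mTEC 1.16, 1.62 and 1.56 and cTEC 1.43, 0.669 and 1.62. All colon libraries lay above all others, and the other 4 groups overlapped with their neighbours in the order lung, skin, mTEC, cTEC (adjusted p 0.319 to 0.863). Colon exceeded lung 27.3 times (log2 fold change 4.77 ± 0.69, adjusted p = 3.29e-05). The lower mean of thymic against extrathymic epithelium (-2.66 ± 0.47, adjusted p = 0.000166) comes with this level in colon, and against skin the gene did not pass (-0.96 ± 0.602, adjusted p = 0.182). Skin replicate 1 gave no read, which allows up to 0.282 CPM, and without it the difference from skin passed (-1.499, adjusted p = 0.00514).

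Several sensor genes of inflammasomes and Casp1 also had their highest mean in colon. Nlrp6, a sensor of inflammasomes known from gut epithelium, stood at 141 ± 14.4 CPM in colon, Nlrc4 at 86.2 ± 5.48 and the DNA sensor gene Aim2 at 75.7 ± 2.26. In lung the same 3 genes gave 4, 3 and 27 reads over 3 libraries. Casp1, whose protease cuts IL-18, stood at 120.03 ± 21.3 CPM in colon, 61.4 ± 9.54 in mTEC, 37.0 ± 3.38 in cTEC, 11.3 ± 4.10 in skin and 1.12 ± 0.624 in lung. It was 107 times lower in lung than in colon (log2 fold change -6.74 ± 0.41, adjusted p = 4.45e-09). Averaged on the log2 scale it was 4.13 times higher in thymic than in extrathymic epithelium (2.04 ± 0.21, adjusted p = 6.72e-07). That size comes with the low level in lung, and the mean of colon lay above those of both thymic groups. Of 13 measured inflammasome and processing genes, 9 were lower and 2 higher in lung than in colon, with a median log2 fold change of -2.99, or -1.85 with the gene without reads at the floor. Of all genes 28.3% were lower and 30.4% higher in lung. Between thymic and extrathymic epithelium 6 of the 13 were higher and 3 lower, not far from the shares of all genes (37.3% and 26.9%). Nlrp1b stood beside Casp1 among the higher (4.24 ± 0.29, adjusted p = 9.81e-09, or 5.22 without lung replicate 2). Casp8 and Capn1 were among the lower (-0.52 ± 0.12, adjusted p = 0.0012, and -0.65 ± 0.14, adjusted p = 0.00109). In mTEC against cTEC 5 were higher (Aim2, Nlrc4, Nlrp3, Nlrp6 and Casp8) and 1 lower, where 15.2% and 9.45% of all genes were. The 5 became 1, Aim2, without cTEC replicate 2, without mTEC replicate 1 or with the groups of the same kit, 2 without cTEC replicates 1 or 3 or colon 1 or 3, and 3 without colon replicate 2. With the replicate number as a block in the thymic groups the lower genes were 2, with Capn1 as the other (adjusted p = 0.0401). Aim2 was among the higher (1.79 ± 0.27, adjusted p = 0.000439), as was Nlrc4 (1.82 ± 0.57, adjusted p = 0.0309), and Pycard, the adaptor of inflammasomes, was the lower gene (-0.74 ± 0.23, adjusted p = 0.0276). The call of Nlrc4 was lost without cTEC replicates 1 or 2, mTEC 1 or colon 1, 2 or 3 and with the groups of the same kit (adjusted p 0.0515 to 0.245), and its log2 fold change was 2.85 without cTEC replicate 3. That of Pycard was lost without cTEC replicates 2 or 3 or mTEC 1, 2 or 3 (adjusted p 0.0603 to 0.0976).

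The IL-18 receptor gene had another pattern. Il18r1 stood at 579 ± 22.3 CPM in lung, 76.3 ± 11.6 in mTEC, 18.9 ± 4.61 in cTEC and 10.2 ± 2.42 in skin, with 7 reads in colon. It was 4.02 times higher in mTEC than in cTEC (log2 fold change 2.01 ± 0.25, adjusted p = 0.000133). Il18bp, the secreted inhibitor of IL-18, stood at 17.2 ± 1.28 CPM in mTEC and 15.7 ± 1.405 in cTEC against 3.84 to 4.35 on average in the other groups (2.03 ± 0.13, adjusted p = 3.95e-09).

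Il33 separated cTEC from mTEC. Il33 (ENSMUSG00000024810.16, chromosome 19, 29925114 to 29960718, plus strand) had 5.88, 4.19 and 3.12 CPM in mTEC and 38.8, 13.8 and 23.7 CPM in cTEC, with no overlap. Skin was highest at 52.9, 81.7 and 113 CPM, lung had 40.5, 22.6 and 15.4 and colon 7.07, 13.4 and 6.96. The gene was 5.80 times lower in mTEC than in cTEC (log2 fold change -2.54 ± 0.46, adjusted p = 0.00172). Skin exceeded lung 3.16 times (1.66 ± 0.43, adjusted p = 0.00396), lung and cTEC overlapped (adjusted p = 0.947), cTEC exceeded colon 2.78 times (1.47 ± 0.44, adjusted p = 0.00848), and colon and mTEC did not overlap but did not pass (adjusted p = 0.0505). Thymic epithelium was 2.56 times below the extrathymic mean (-1.36 ± 0.29, adjusted p = 0.000912) and 7.82 times below skin (-2.97 ± 0.36, adjusted p = 6.84e-06). Lung exceeded colon 2.85 times (1.51 ± 0.44, adjusted p = 0.00788), a call lost without lung replicate 1 (adjusted p = 0.0536). Fibroblasts express Il33 too, and their summed markers were 178, 157 and 155 CPM in mTEC replicates 1 to 3 against 534, 458 and 280.4 in cTEC. In mTEC both these sums and Il33 fell from replicate 1 to 3. In cTEC both were highest in replicate 1, but the sum was lowest in replicate 3 and Il33 in replicate 2. In skin these sums were 4086, 1393 and 7775 CPM. Both they and Il33 were highest in replicate 3, but the sum was lowest in replicate 2 and Il33 in replicate 1. The sums of endothelial markers were likewise high in skin (368, 137 and 106 CPM, highest in the replicate with the least Il33) and lung, where Il33 is high too, but lay at 15.1, 16.5 and 17.4 CPM in cTEC and 42.7, 24.8 and 40.5 in mTEC. The part of either cell type in the levels of Il33 was not tested.

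Il1a was the lowest member in both thymic groups by TPM. Il1a (ENSMUSG00000027399.1, chromosome 2, 129299610 to 129309972, minus strand) shares bases with Gm14023 on the other strand. It stood at 4.42, 5.39 and 3.15 CPM in skin, 0.923, 6.19 and 2.82 in lung, 2.60, 1.47 and 1.03 in colon, 2.31, 0.893 and 1.48 in mTEC and 0.619, 0.167 and 0 in cTEC. The lung pools spanned the whole range of the skin and colon pools, and cTEC lay below all other groups with 16 reads in all, 0 of them in replicate 3, which allows up to 0.168 CPM. Thymic epithelium was 6.55 times below skin (log2 fold change -2.71 ± 0.66, adjusted p = 0.00252) and 4.40 times below the extrathymic mean (-2.14 ± 0.55, adjusted p = 0.00332), or 11.3 and 7.66 times below without cTEC replicate 1. Taken singly, cTEC lay below skin (-3.96 ± 0.89, adjusted p = 0.00166). In mTEC the gene did not pass against skin (-1.46 ± 0.76, adjusted p = 0.116) or lung (adjusted p = 0.221). Neighbours in the order skin, lung, colon, mTEC did not pass (adjusted p 0.283 to 0.901). Its excess of 5.66 times in mTEC over cTEC (2.502 ± 0.87, adjusted p = 0.0497) lay at the threshold. It was lost without cTEC replicates 2 or 3, mTEC 1, 2 or 3, skin 2, colon 1, 2 or 3 or lung 3, with RSEM expected counts and with the groups of the same kit (adjusted p 0.0505 to 0.166). Without cTEC replicate 1 the log2 fold change was 4.14 (adjusted p = 0.0189).

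The natural inhibitor of IL-1, Il1rn, was measured beside Il1a and had another order. It stood at 100.2, 99.1 and 57.8 CPM in mTEC and 22.2, 13.8 and 13.3 in cTEC, and was 5.20 times higher in mTEC (log2 fold change 2.38 ± 0.33, adjusted p = 0.000259). Colon had 218 ± 76.5 CPM, skin 94.6 ± 24.8 and lung 1.60 ± 0.594, and lung was 135 times below colon (-7.08 ± 0.42, adjusted p = 3.22e-09). Thymic and extrathymic means did not pass the test of a difference (adjusted p = 0.354). Il1r2, the decoy receptor of IL-1, stood at 149 ± 27.2 CPM in skin, 38.5 ± 5.34 in mTEC and 21.3 ± 2.502 in cTEC against 0.335 and 0.753 in colon and lung. Averaged on the log2 scale it was higher in thymic than in extrathymic epithelium (3.09 ± 0.15, adjusted p = 3.91e-10). That difference comes with the low levels in colon and lung, since the means of both thymic groups lay below that of skin. Il1f5, the IL-36 receptor antagonist gene, stood at 28.7 CPM in skin, 4.78 in mTEC and 1.01 in cTEC, with 0 reads in lung and colon, and Il1f6, which encodes IL-36 alpha, gave 48 reads in cTEC, 172 in mTEC and 2 to 4 in each other group.

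Among the 9 measured IL-1 family ligands and antagonists, 4 were higher and 3 lower in thymic than in extrathymic epithelium, with a median log2 fold change of 0.82. Those counts lie near the shares of all genes (37.3% higher and 26.9% lower). Against skin 1 was higher and 5 lower, with a median of -1.33, where 35.6% and 25.6% of all genes were. The 1 became 2 without skin replicate 3. In mTEC against cTEC 3 were higher (Il1rn, Il1f5, Il1a) and 1 lower (Il33), and 1 was higher without cTEC replicates 2 or 3 or mTEC replicates 1 or 3. Of all genes 15.2% were higher and 9.45% lower in mTEC. The call of Il1f5 (2.21 ± 0.66, adjusted p = 0.0326) was lost without cTEC replicates 2 or 3 or mTEC replicates 1 or 3 (adjusted p 0.0858 to 0.116), and the log2 fold change was 3.50 without cTEC replicate 1. Of the 9 receptors and inhibitors, 3 were higher in mTEC than in cTEC and 0 lower, with Il1rl2, the IL-36 receptor, next to Il18r1 (1.199 ± 0.23, adjusted p = 0.00222). Sigirr and Il1rap were lower in thymic than in extrathymic epithelium (-1.26 ± 0.14, adjusted p = 2.49e-06, and -1.199 ± 0.16, adjusted p = 1.41e-05).

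Tslp was a skin gene in these libraries. It is a protein-coding gene on chromosome 18 that shares bases with the long non-coding RNA gene 4930455D15Rik on the other strand. It stood at 8.85, 12.6 and 14.2 CPM in skin, 2.03, 3.62 and 2.51 in lung, 1.91, 1.51 and 1.52 in mTEC, 0.762, 1.003 and 0 in cTEC and 0.403, 0.367 and 0.268 in colon. Skin lay above all other groups, and cTEC replicate 3 gave no read, which allows up to 0.168 CPM. Skin exceeded lung 4.37 times (log2 fold change 2.13 ± 0.61, adjusted p = 0.00731), and the next neighbours did not pass: lung and mTEC (adjusted p = 0.312), mTEC and cTEC (adjusted p = 0.121, without overlap) and cTEC and colon (adjusted p = 0.359). Thymic epithelium was 11.997 times below skin (-3.58 ± 0.51, adjusted p = 3.35e-05). The difference from the extrathymic mean (-1.18 ± 0.43, adjusted p = 0.0261) was lost without mTEC replicate 2 (adjusted p = 0.0555) or mTEC replicate 3 (adjusted p = 0.0614). Lung exceeded colon 7.74 times (2.95 ± 0.68, adjusted p = 0.00169), and DESeq2 called the excess of mTEC over cTEC (log2 fold change 1.53, adjusted p = 0.0228).

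The receptor gene of TSLP had another order. Crlf2, which encodes the TSLP receptor chain, had 18.95, 29.1 and 20.1 CPM in mTEC and 26.8, 40.0003 and 25.9 in cTEC, against 10.9 ± 2.02 in skin, 4.24 ± 0.258 in colon and 2.74 ± 0.827 in lung. It was 5.28 times higher in thymic than in extrathymic epithelium (log2 fold change 2.40 ± 0.17, adjusted p = 1.83e-08) and 2.44 times higher than in skin (1.29 ± 0.25, adjusted p = 0.000421). Of the 8 genes listed for TSLP and IL-25, 6 were higher and 1, Tslp itself, lower in thymic than in extrathymic epithelium (0 lower without mTEC replicates 2 or 3), with a median log2 fold change of 2.04. Of all genes 37.3% were higher and 26.9% lower. Il4ra, a receptor chain of IL-4 and IL-13, was among the higher (1.68 ± 0.09, adjusted p = 1.47e-09) and was also higher in mTEC than in cTEC (0.61 ± 0.15, adjusted p = 0.00904). Against skin, within a single kit, 4 of the 8 were higher and 1 lower, with a median of 0.81, where 35.6% and 25.6% of all genes were. The lower genes were 2 with the replicate block in all groups or without cTEC or mTEC replicate 2. Il25, a cytokine of tuft cells, stood at 7.81 ± 1.53 CPM in mTEC and 5.21 ± 2.94 in cTEC, and gave 14 reads in skin, 6 in colon and 3 in lung. Summed tuft cell markers, Il25 among them, were 389.8 to 516 CPM in mTEC and 125 to 395 in cTEC. They were 122 to 269 CPM in skin, led there by Pou2f3, 28.9 to 41.3 in colon and 8.39 to 11.6 in lung.

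Within the thymus, cortex and medulla differed by the test in Il1a and Il33. Of 7 members 1 was higher in mTEC (Il1a), 1 lower (Il33) and 5 did not pass, where 15.2% of all genes were higher and 9.45% lower. The medians were 0.55 over the members and 0.07 over all genes. Il1a is the call that 12 alternatives ended, and that of Il33 held in each of them. Between lung and colon 4 of 8 were higher in lung (Il23a, Il12a, Il33, Tslp), 2 lower (Il15, Il18) and 2 did not pass (Il15ra, Il1a). Of all genes 30.4% were higher and 28.3% lower in lung, with medians of 0.95 over the members and 0.00404 over all genes.

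Levels of different genes can be compared only per length, on the deposited TPM scale. In mTEC, Il15ra (138 ± 31.9 TPM) and Il23a (101 ± 21.8) led, followed by Il15 (29.5 ± 7.27) and Il12a (21.2 ± 14.1), and the other 4 were at most 4.87 TPM in any library. In cTEC, Il15ra led at 94.4 ± 9.92 TPM, and Il15, Il33, Il12a and Il23a lay between 7.75 and 33.2 TPM. The ranges of Il33 and Il12a overlapped each other and those of Il15 and Il23a. All cTEC libraries of Il15 (21.9 to 29.5 TPM) lay above those of Il23a (13.1 to 17.6 TPM). Skin was led by Il33 (46.7 ± 22.1) and Il15ra (34.4 ± 0.648), whose ranges overlapped, and Tslp followed at 12.8 ± 5.04 TPM. Colon was led by Il18 at 114 ± 29.8 TPM, with the next gene, Il15, at 9.62 ± 2.54. In lung Il33 led at 16.1 ± 8.48 TPM, and the next gene, Il15ra, was at 6.26 ± 1.49. By means, Il23a ranked just behind Il15ra in mTEC, below Il12a in cTEC, and last or next to last in skin, colon and lung, where Il12a was the other low gene.

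**Figure D4:**
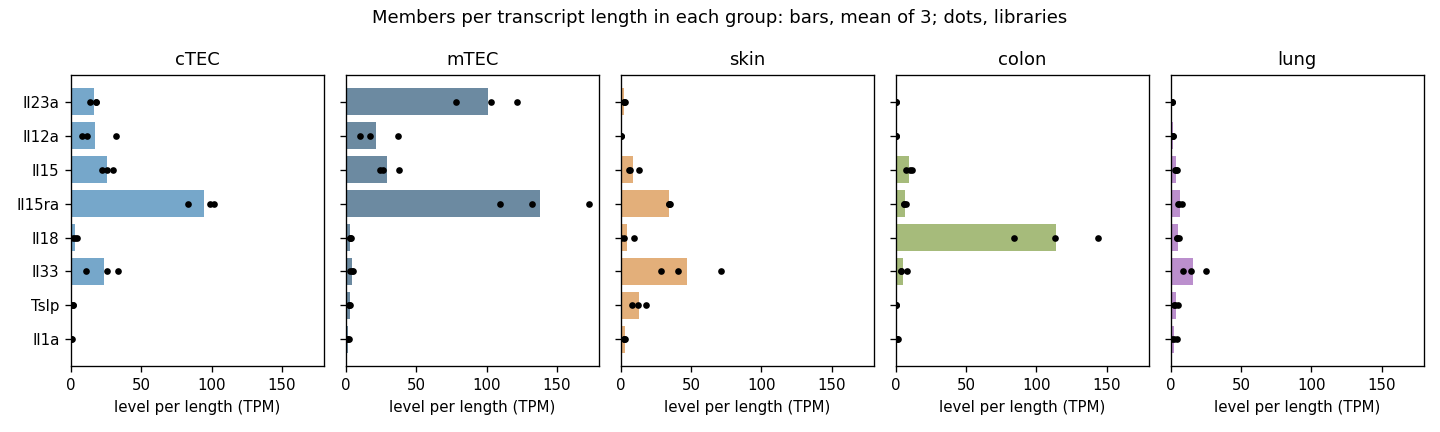
Mean level per transcript length (deposited TPM, linear axis from 0) of the 8 genes in each group as bars, with libraries as dots. Il15ra and Il23a lead in mTEC, Il15ra in cTEC, Il33 and Il15ra in skin, Il18 in colon and Il33 in lung.

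The genes most like each member in pattern were found among 12007 protein-coding genes by Pearson's r of log2 CPM over the 15 libraries, which share tissue and kit, so the values are descriptions. Nearest to Il23a were Stat5a (0.976), Eno2 (0.970), Plekho1 (0.967), Sfrp1 (0.966) and Sema4c (0.966). Stat5a, which encodes a transcription factor of cytokine signalling, stood at 177 ± 23.2 CPM in mTEC, 50.8 ± 4.13 in cTEC, 28.8 ± 6.58 in skin, 12.5 ± 1.14 in colon and 10.3 ± 1.22 in lung. Nearest to Il12a were Tmem150c (0.980), Myo3b (0.978) and Ccl22 (0.975), the last a chemokine gene. Il15 was nearest to B4galnt1 (0.969), Boc (0.952) and Cnksr3 (0.951), and Il15ra to the MHC class I genes H2-Q6 (0.991), H2-Q7 (0.990) and H2-Q4 (0.985), paralogs whose reads may be split or lost between copies. Il18 was nearest to the tRNA synthetase genes Nars (0.963) and Iars (0.955) and to Fastkd2 (0.954). Il33 was nearest to Ryk (0.901), Tnfrsf19 (0.900) and Osbpl1a (0.890), and Tslp to Thoc6 (0.951), Sema3d (0.930) and Ivl (0.929), the last a gene of the cornified envelope of skin. Il1a was nearest to Lrrc32 (0.896), Eif4e2 (0.895) and Mfsd1 (0.888).

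Signalling genes that act below these cytokines were counted from the same kind of lists. Of 12 JAK-STAT genes 9 were higher and 1 lower in thymic than in extrathymic epithelium, with a median log2 fold change of 0.72, where 37.3% and 26.9% of all genes were. In mTEC against cTEC 2 were higher, near the share of all genes (15.2%). These 2 were Stat5a (log2 fold change 1.80 ± 0.17, adjusted p = 1.57e-05) and Stat3, which mediates IL-23 and IL-6 signals (0.91 ± 0.18, adjusted p = 0.00244). Socs1, the feedback inhibitor of JAK kinases, had 152, 211 and 180.3 CPM in mTEC and 250.4, 486 and 185 in cTEC, with 33.6 ± 11.1 in skin, 3.01 ± 0.904 in colon and 7.33 ± 1.41 in lung (4.71 ± 0.22, adjusted p = 2.76e-10). Stat6 was the lower gene (-0.32 ± 0.07, adjusted p = 0.00119), a call lost with upper quartile scaling (adjusted p = 0.0748). MyD88 signalling, the route of the IL-1 family receptors, was listed with 10 genes. Of these 3 were higher and 3 lower in thymic than in extrathymic epithelium, near the shares of all genes, with a median of 0.11. Tollip, an inhibitor of that route, was among the lower (-1.48 ± 0.13, adjusted p = 2.1e-07), and Irak3, another inhibitor, was higher in mTEC than in cTEC (1.84 ± 0.202, adjusted p = 4.78e-05), as was the ligase gene Traf6 (0.85 ± 0.17, adjusted p = 0.00279). Myd88, the adaptor itself, was lower in mTEC (-0.99 ± 0.32, adjusted p = 0.0367), a call lost without cTEC replicates 1 or 2 or mTEC 1 or 3 and with the groups of the same kit (adjusted p 0.0558 to 0.213). All 12 listed interferon-stimulated genes were higher in thymic than in extrathymic epithelium, such as Oasl2 (5.56 ± 0.19, adjusted p = 1.51e-11).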

How the data were processed

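RNA sequencing libraries of 5 groups of sorted mouse epithelial cells were used, 3 per group. Per the submitters' processing notes, the authors used bcl2fastq 2.20, STAR 2.5.1b, RSEM 1.2.28 and the GRCm38 genome. For the gene annotation, the release was not given in the sources used here. Tables as deposited hold read counts per gene in unstranded and stranded columns, with lines for reads outside genes that were left out, and the authors' RSEM expected counts and TPM. The sense column was tested, its total being 8.43 to 19.3 times that of the other strand, and TPM served only to compare genes within a library.

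Symbols came from GENCODE M21 (50376 of 50600 identifiers matched, 224 did not) and promoter windows from RefSeq on GRCm38.p6. Counts were scaled with TMM and filtered with filterByExpr, and a model of group means over all 15 libraries was tested with the quasi-likelihood F-test of edgeR 4.0.16 in R 4.3.3, with Benjamini-Hochberg adjustment over 19107 genes. Expected counts were rounded to whole numbers for an alternative fit, and DESeq2 1.42.0 was another. A standard error is the log2 fold change divided by the square root of F. The common biological coefficient of variation was 28.1%, and replicates differed by more than counting noise (chi-square per degree of freedom 20.5 to 191). Intervals and floors (3 reads) cover counting error only. Deviations from the group mean of same-numbered cTEC and mTEC libraries correlated at 0.381 to 0.403 (3 pairs) and those of other numbers at -0.399 to 0.1198 (6 pairs). The numbers were therefore taken to pair the thymic libraries, from these correlations and not from the labels, and a fit with the number as a block in the thymic groups was added after seeing the data. That fit was used for mTEC versus cTEC only. The main tests of thymic against other epithelia treated the thymic libraries as independent, so their standard errors may be too small.

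The members and gene lists were chosen with earlier results of these data known. From each list up to 2 genes per direction with the smallest p in thymic versus extrathymic epithelium and in mTEC versus cTEC were to be named, with the partner genes Il12b, Ebi3, Il2rb, Il2rg, Casp1, Crlf2 and Il1rn. Further genes, such as Il27, Il12rb2, Il18r1, Il25, Nlrp6 and Nlrc4, were named after their values were seen.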

Additional observations from a re-analysis of the deposited data

How the results depend on the processing

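Alternatives were scaling by upper quartile or DESeq2 size factors, a filter at 1 CPM in 3 libraries or none, DESeq2, unstranded counts, RSEM expected counts, a fit of only the groups of the same kit, each of the 15 libraries left out and a replicate block in all groups or, added after seeing the data, in the thymic groups only. Of 768 fold changes of members under them, 17 lost their call, 4 gained one, 0 calls changed sign and the other 747 were counted as the same. A change of sign in a fold change that was not called in the main fit was also counted as the same. The 768 include Il23a in the comparisons with thymic groups, which has no test and no call. For it, the same means a kept sign and a small shift, and this is a description. In mTEC versus cTEC the number of members called was 2, but 3 with DESeq2 (Tslp being the third), 1 with RSEM expected counts, 1 with only the groups of the same kit and 1 to 3 when a library was left out. Leaving out a library gave 6 to 7 called in thymic versus extrathymic epithelium, 6 to 7 in thymic epithelium versus skin, 5 to 6 in lung versus colon and 7 to 7 among the 5 groups. Over all genes, 4714 were called in mTEC versus cTEC, 2709 with only the groups of the same kit, 3075 without cTEC replicate 2 and 2408 without mTEC replicate 1. Of 9379 fold changes of the other listed genes, 183 lost a call, 137 gained one, 0 calls changed sign and 9059 were counted as the same in this way. Depth limits Il12a in skin and colon, Il12b outside mTEC and Il1a in cTEC, where a few reads set the level.

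With the replicate number as a block in all groups, the members called were 7, 6, 2, 6 and 7 in the 5 counts above, as without it, and among listed genes Il2rg (adjusted p = 0.0716) and Nlrp3 (adjusted p = 0.0539) lost their call in mTEC versus cTEC. With the block in the thymic groups only, where the numbers pair the libraries, 2 members were again called in that comparison, Il1a (adjusted p = 0.0359) and Il33 (adjusted p = 0.0022), and 4567 of all genes. Among listed genes Il2rg alone lost its call (adjusted p = 0.0842), and Il1rl1, Il17ra, Capn1, Ifit1 and Gbp2 gained one (adjusted p 0.0354 to 0.044). Outside the thymic pairs the libraries share only a number, with same-numbered correlations of -0.166 to 0.205 in 27 pairs.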

Other observations

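Other cytokine genes that epithelia can make followed patterns of their own. Of 15 measured genes of that list, 7 were higher and 2 lower in thymic than in extrathymic epithelium, where 37.3% and 26.9% of all genes were. Csf1, the growth factor of macrophages, had 130.2 ± 13.8 CPM in mTEC, 258 ± 7.55 in cTEC, 67.6 ± 29.0 in skin, 40.7 ± 6.18 in lung and 6.64 ± 1.71 in colon (log2 fold change 2.80 ± 0.17, adjusted p = 3.42e-09). Flt3l, the growth factor of dendritic cells, had 11.5 ± 3.55 CPM in mTEC and 26.4 ± 10.5 in cTEC (1.85 ± 0.21, adjusted p = 1.94e-06). The lower genes were Il6, with 62.4 ± 19.1 CPM in lung, 40.8 ± 17.03 in skin and 0.614 and 0.838 in cTEC and mTEC (-4.64 ± 0.46, adjusted p = 6.03e-07), and Csf3, with 5.77 ± 4.63 CPM in skin (-1.76 ± 0.598, adjusted p = 0.0183, or -2.35 without cTEC replicate 2).

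Il34, a second ligand of the Csf1 receptor, had, like Il33, higher means in skin and cTEC than in mTEC. It stood at 149 ± 75.5 CPM in skin, 30.6 ± 4.37 in cTEC and 5.49 ± 0.251 in mTEC, with 4.14 in colon and 3.12 in lung, and was 5.57 times lower in mTEC than in cTEC (-2.48 ± 0.39, adjusted p = 0.000592). Csf1 was also lower in mTEC (-0.99 ± 0.26, adjusted p = 0.0148), a call lost without mTEC replicate 1 (adjusted p = 0.073). Of the 15 genes 5 were lower and 0 higher in mTEC than in cTEC, where 9.45% and 15.2% of all genes were. The 5 became 2 without mTEC replicate 1, and 3 without cTEC replicates 2 or 3, without mTEC replicate 2 or with the groups of the same kit, and 1 to 3 genes were higher without a skin replicate, and 1, Il17c, with both other scalings, the filter at 1 CPM, DESeq2 or unstranded counts.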
